A study of Mus musculus with 84 samples.

Results

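Of the 59 mouse prefrontal neurons whose titles carry the letter P, 27 had at least 1 raw count of Gad1. These were selected on that count and compared with the 32 that had 0 counts. Gad1 encodes a glutamate decarboxylase that makes GABA, and the sides were chosen by it alone, so its own values are a description and were left out of every comparison. The whole series held 84 single neurons, 59 P cells and 25 F cells, of mouse strain C57/BL6/N. Each was drawn into a patch-clamp pipette from an untreated acute slice of prefrontal cortex, and its polyadenylated RNA was amplified by repeated in vitro transcription (the aRNA procedure). The series title speaks of pyramidal and fast-spiking cells, but no label spells out the letters, and neither side differs from the other in strain, region or treatment. No label names an animal, so each side counted as 1 sample of cells, and no p-value or standard error was computed.

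Pyramidal cells are the projection neurons of the cortex. They load glutamate into vesicles through Slc17a7 (VGLUT1), and transcription factors such as Neurod6 and Tbr1 mark them. GABAergic interneurons make GABA with Gad1 and Gad2 and load it into vesicles through Slc32a1 (VGAT). Fast-spiking interneurons are known for parvalbumin (Pvalb) and rapidly closing potassium channels of the Kcnc family, and other interneuron classes for peptides such as somatostatin (Sst), Vip, Npy and Cck. A neuron harvested through a pipette can also carry RNA of the glia around it.

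Gad1 was found in 45.8% of P cells (exact Clopper-Pearson 95% interval 32.7 to 59.2%, over cells). The counts were very uneven. Among the 27 cells, 8 had 1 count, 4 had 2, 10 had 3 to 21, and 5 had 182 to 10079. The single counts were in P26, P27, P32, P41, P54, P55, P72 and P74, and the pairs of counts in P21, P33, P44 and P73. These 12 cells lie just inside the threshold. No cell lay between 21 and 182 counts, and the 5 cells above this gap, P67, P22, P42, P25 and P3, held 99.5% of all Gad1 counts of the P cells. As counts per 1000000 counts of the cell (CPM), Gad1 stood at 4752 in P67, 1958 in P42, 605 in P22, 75.6 in P25 and 67.2 in P3. Another 3 cells, P75, P68 and P34, reached 10 CPM with 7 to 11 counts in shallow libraries. The Gad1 gene lies at chr2:70553072-70602014 on the plus strand (mm10, GENCODE vM21).

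Cells with Gad1 had more genes, and the shallowest libraries were all on the other side. Total counts ran from 201244 to 16251918 with Gad1 (median 2706396) and from 19802 to 15367857 without it (median 2605511), and 7 of the 32 cells without Gad1 were shallower than any cell with it. The median number of genes with a count was 4251 with Gad1 and 2813.5 without. Each cell was then thinned to 86539 counts, which left out 6 cells, all without Gad1. The medians were then 1771 genes in 27 cells and 1405 genes in 26, and the ranges overlapped, from 360 to 5635 and from 691 to 3349. Only 6 of the 27 cells kept a Gad1 count after thinning. Depth and genes per cell thus moved with the side, and beyond the thinned values given beside each result their part in it was not tested. The ribosomal RNA gene Rn45s took a median of 1.14% and 1.23% of the counts, and up to 16.02% and 78.5%. No 2 P libraries were near copies of each other, with a highest pairwise Pearson correlation of 0.58 on log2(CPM + 1).

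**Figure D1:**
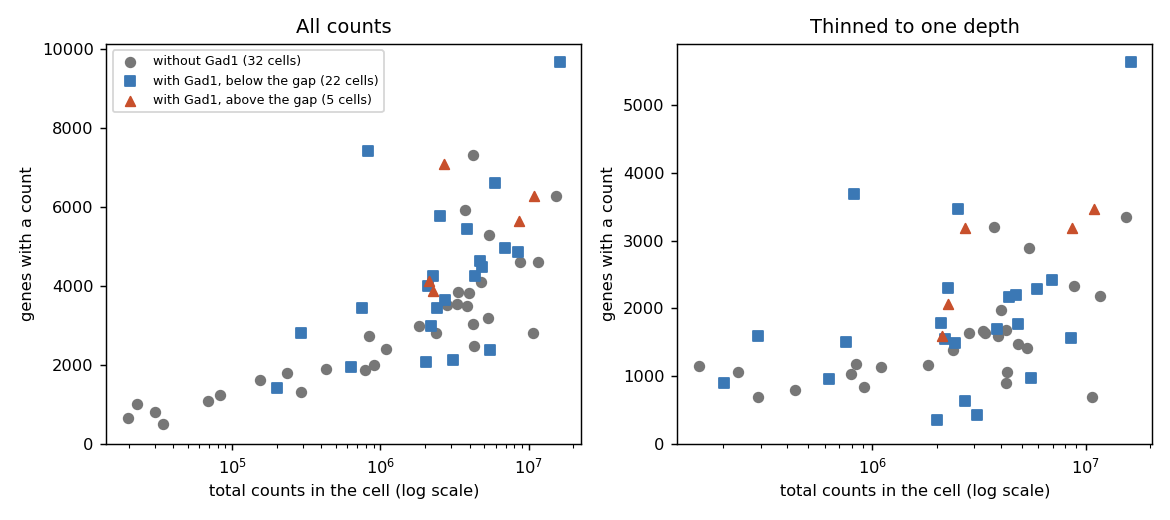
Genes with a count (vertical axis) against total counts of the cell (horizontal, log scale), for all counts (left, 59 P cells) and after thinning to 86539 counts (right, 53 P cells). Grey circles are cells without Gad1, blue squares cells with 1 to 21 Gad1 counts and orange triangles the 5 cells with at least 182. The cells shallower than 201244 counts are all without Gad1, and the sides overlap in genes per cell.

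That excess of genes forms the background for every list. Of 9704 genes measured, meaning found in at least 8 P cells, 57.1% had a higher mean CPM in cells with Gad1, and 53.8% did after thinning. Means trimmed by 20% at each end and mean log2(CPM + 1), which give single high cells less weight, were higher with Gad1 for 7368 and 7322 of the 9704 genes, against 5544 for mean CPM. By a fold of at least 2, 37.7% were higher and 24.9% lower. A gene was found in a larger share of the cells with Gad1 for 86.9% of genes at full depth and for 61.6% after thinning. Here and below, the fold is the ratio of mean CPM plus 1, cells with over cells without Gad1. The median log2 fold of all measured genes was 0.31, 0.25 after thinning and 0.30 without P67. Its sign turned when the side was set more strictly. With sides set at 10 CPM of Gad1 (8 against 51 cells) it was -0.38, and with sides set by Gad1 counts after thinning (6 against 47) it was -0.69. Single cells weighed heavily on means. Of 78 genes named here with a fold of at least 2, 61 moved by over 1.5-fold towards 0 when 1 cell was left out, 30 fell under 2-fold or turned, and 9 of these turned.

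The genes for making, packaging and taking up GABA had far higher means in cells with Gad1, but a few cells held nearly all of it. Of the 5 measured members, 4 were higher by at least 2-fold (beside 37.7% of all genes). The list's median log2 fold was 5.07, 4.71 after thinning and 3.62 without P67. The summed level of the list was 6.99 CPM in the median cell with Gad1 and 1.497 CPM in the median cell without. In the 5 cells above the gap the sum was 4911 CPM in P67, 4764 in P25, 2234 in P22, 1541 in P3 and 3.56 in P42. In the 22 cells below the gap its median was 5.42 CPM. Of them 3, P44 at 5558, P16 at 1333 and P72 at 798, were above the highest cell without Gad1 at 686. Most of the sum was Slc32a1 in P44 and Aldh5a1 in P72. In P16 it was Slc6a13, a GABA transporter that is not among the measured members. With the 5 cells above the gap left out, the list's median log2 fold was 0.34, with 3 of 5 members higher. Libraries were split between 2 versions of the base caller bcl2fastq. Within the newer (23 against 30 cells) the median was 5.12, and within the older (4 against 2 cells) it was 0.78.

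Gad2, the second glutamate decarboxylase (chr2:22622205-22693874, plus strand), averaged 218.6 CPM with Gad1 and 5.53 CPM without, a log2 fold of 5.07. It stood at 3860 CPM in P25, 931 in P67, 592 in P22, 493 in P3 and 0 in P42. The next highest cells were on the other side, P65 at 106.5 CPM and P31 at 56.1 CPM, followed by P75 with Gad1 at 13.8 CPM. Gad2 had a count in 14 of 27 cells with Gad1 (51.9%) and in 11 of 32 without (34.4%), and after thinning in 7 of 27 and 5 of 26, so the sides overlapped throughout. Among cells below the gap the log2 fold turned to -1.59. It was 3.61 without P25.

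Slc32a1, the vesicular GABA transporter (chr2:158610767-158615748, plus strand), averaged 194.9 CPM with Gad1 and 0.30 CPM without. Only 2 cells with Gad1 had 10 CPM or more of it. P44, with only 2 Gad1 counts, had 4625 CPM of Slc32a1, and P67 had 629 CPM. P44 was also rich in Neurod6 (3907 CPM) and Mef2c (5089 CPM) of the glutamatergic list, and had 0.41 CPM of Gad2. Mef2c was not limited to P cells, with a count in 15 of 25 F cells. A count of Slc32a1 was seen in 8 cells with Gad1 and in 4 without, of which the highest was P36 at 5.77 CPM. The log2 fold of 7.24 fell to 4.30 without P44. Because P44 lies on the low side of both stricter rules, the fold was -0.19 with sides set at 10 CPM of Gad1 and -0.09 with sides set after thinning.

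The enzymes that break GABA down did not share a direction. Aldh5a1, succinate semialdehyde dehydrogenase, averaged 126 CPM with and 14.5 CPM without Gad1, with 1533 CPM in P22, 928.7 in P44 and 798.1 in P72. It was found in 13 and 6 cells. Abat, GABA transaminase, averaged 32.9 and 50.6 CPM, with its highest values in P25 (750.7 CPM) and, without Gad1, in P24 (685.3 CPM).

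Seen cell by cell, Gad2 and Slc32a1 came together in few cells. A count of both was present in 6 of 27 cells with Gad1 (22.2%, interval 8.62 to 42.3%), namely P67, P3, P22, P14, P2 and P44, and in 2 of 32 cells without Gad1 (6.25%, 0.766 to 20.8%), namely P17 and P31, and the intervals overlap. At 10 CPM or more, both were present in P67 alone of the P cells. At least 1 of the 2 reached 10 CPM in 6 of 27 cells with Gad1, of which 4 were above the gap (P67, P22, P25 and P3), and in 2 of 32 without, P31 and P65. After thinning, a count of at least 1 of them was found in 7 of 27 (25.9%) and 6 of 26 (23.1%). For comparison, both reached 10 CPM in 6 of 25 F cells and at least 1 did in 15 of 25.

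**Figure D2:**
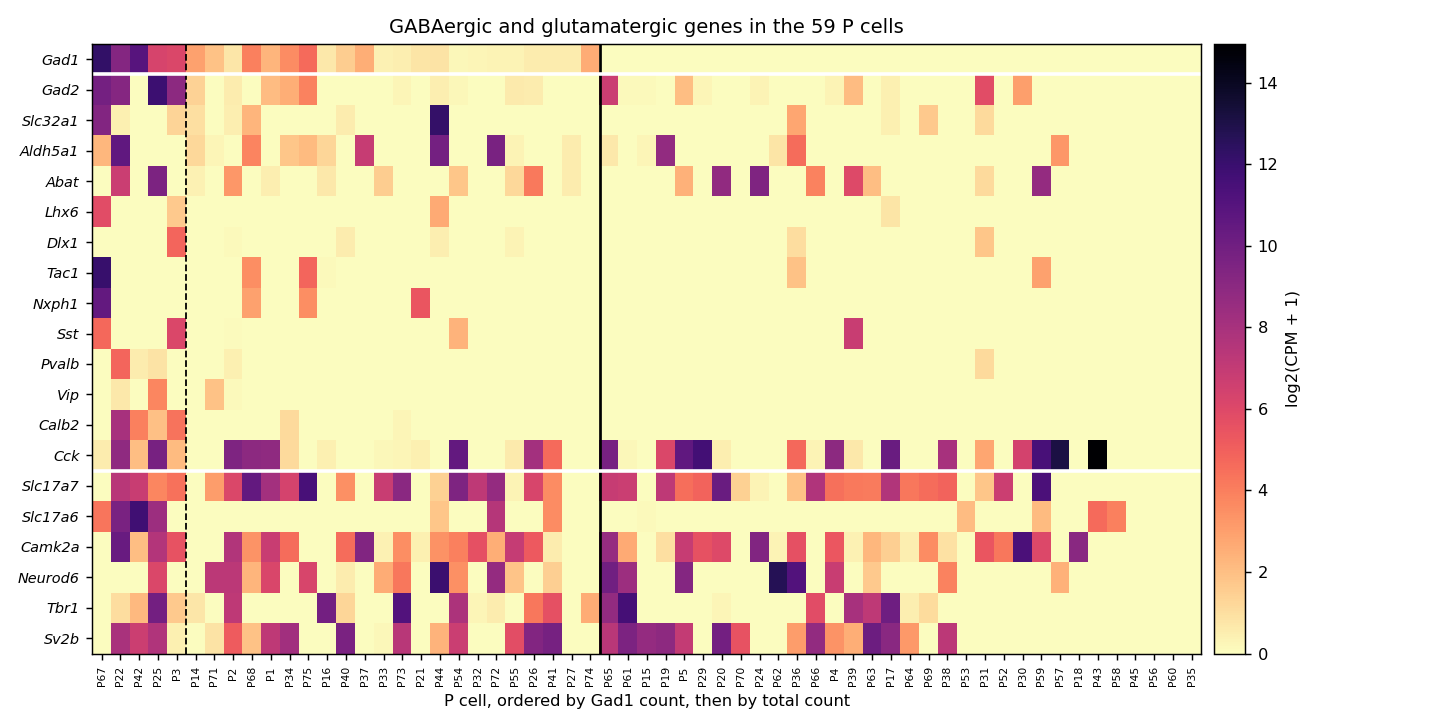
Level of 14 GABAergic genes (Gad1 in the first row) and 6 glutamatergic genes (below the lower white line) in each of the 59 P cells, as log2(CPM + 1). Cells are ordered by Gad1 count, the dashed line ends the 5 cells above the gap and the solid line ends the 27 cells with Gad1. Several GABAergic genes are dark in single cells on the left, such as P67, P3, P25 and P44, but the 5 highest cells of Cck are on the right. The rows are only a part of the lists, and Tac1, Nxph1 and Calb2 are shown outside the naming rule. Kcnc2 and Ndnf, found in more cells without Gad1, are not shown. Glutamatergic genes are spread over both sides.

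Most interneuron genes were too rare in P cells to describe a side. Of the 53 members of the 4 GABAergic and interneuron lists in the table, 17 were measured, 35 had a count in 1 to 7 P cells and 1 in none. Of the 17 measured, 12 had a higher mean with Gad1 (beside 57.1% of all genes), and 10 after thinning. Pooled counts and trimmed means were each higher for 16 of 17, and the share of all genes for pooled counts is not given here. Over all genes trimmed means were higher for 7368 of 9704. Without the 5 cells above the gap the count was 7 of 17 and the median log2 fold -0.36. Of the 35 rarer members, 27 were found in a larger share of cells with Gad1 and 8 in a smaller share, at full depth, beside 71.9% in a larger share for all 9061 genes found in 1 to 7 P cells.

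Among interneuron transcription factors, Lhx6, which specifies interneurons born in the medial ganglionic eminence, was highest in P67 at 54.7 CPM. It was found in 3 cells with and 1 without Gad1. Dlx1, a homeobox gene of forebrain interneurons, was found in 5 and 2 cells, with 26.97 CPM in P3 and at most 2.39 CPM elsewhere. P3 also had 562.7 CPM of Dlx2 and 2490 CPM of Reln, the extracellular glycoprotein reelin. Reln averaged 100.9 and 1.60 CPM, and its log2 fold of 5.30 was 1.95 without P3.

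The markers of fast-spiking cells were mixed. The potassium channel gene Kcnc1 (Kv3.1) was at 1322 CPM in P67, 514 in P22, 476.3 in P3, 439.3 in P42 and 284.9 in P25, so all 5 cells above the gap had it. Its median was 0.57 CPM in the 22 cells below the gap and 0.094 CPM in the 32 cells without Gad1, where it reached 700.3 CPM in P17. Its mean was 133.2 against 53.3 CPM (log2 fold 1.31, and 0.71 without P67). Kcnc2 averaged 52.4 and 23.7 CPM but was found in more cells without Gad1, 13 against 8, and its log2 fold was 0.05 without P54. Pvalb itself had a count in 4 cells with Gad1 and 1 without, and reached 10 CPM only in P22 at 27.4 CPM. P67 had no Pvalb count, and had instead 4242 CPM of Tac1, the tachykinin precursor, and 1425 CPM of Nxph1, a neurexin ligand. Erbb4, a neuregulin receptor of fast-spiking cells, was found in 1 and 2 cells with a highest level of 2.31 CPM.

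Peptides of the other classes were sparse too. Sst was found in 4 cells with Gad1, at 67.99 CPM in P3 and 24.5 CPM in P67, and in 1 cell without, P39, at 108.7 CPM, so the means of 3.59 and 3.40 CPM were alike. Vip was found in 4 and 0 cells, with 12.4 CPM in P25, and Npy in 2 and 0 cells, with at most 0.37 CPM. The 0 of 32 allows a share of up to 9.375%. Cck, which pyramidal cells also express, went the other way, with means of 173.5 and 1597 CPM and 17 cells on each side. Its 5 highest cells were all without Gad1, at 31730 CPM in the shallow cell P43, 8736 in P57, 3183 in P29, 2852 in P59 and 1579 in P5. Without P43 its log2 fold was -1.84 in place of -3.20. Lamp5, a marker of neurogliaform and some pyramidal cells, averaged 40.5 and 124.2 CPM, but its log2 fold of -1.59 turned to 2.38 without P30.

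Glutamatergic genes were present on both sides, and most were found in a larger share of the cells with Gad1. That was so for 19 of 20 measured members of the list at full depth (beside 86.9% of all genes) and for 16 of 20 after thinning (beside 61.6%), with median shares of 44.4 and 30.8% of thinned cells. Of the 20 members, 14 had a higher mean with Gad1 (beside 57.1% of all genes), with a median log2 fold of 0.28. After thinning 10 of 20 were higher (beside 53.8%), with a median of 0.10 beside 0.25 for all genes. Trimmed means were higher for 19 of 20, with a median of 1.36, beside 7368 of 9704 genes over all (0.135). Mean log2(CPM + 1) was higher for 18 of 20, beside 7322 of 9704. The median cell had 4982 CPM of the list with Gad1 and 4268 CPM without, and the ranges, 1.98 to 13188 CPM and 33.4 to 11688 CPM, overlapped almost fully.

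Slc17a7 (chr7:45163949-45176142, plus strand) was found in 20 of 27 cells with Gad1 and 20 of 32 without, and at 10 CPM or more in 16 of 27 (59.3%, interval 38.8 to 77.6%) and 16 of 32 (50%, 31.9 to 68.1%). It averaged 258.8 and 153.7 CPM, from 0 to 2813 CPM (P75) and from 0 to 2649 CPM (P59). It was at 0 in P67, and at 165.9 CPM in P22, 110.7 in P42, 19.95 in P3 and 12.7 in P25. Thus 4 of the 5 cells with most Gad1 also carried the glutamate transporter above 10 CPM. In F cells 3 of 25 did.

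Of the other general pyramidal genes, Tbr1 and Neurod6 were found in a larger share of cells with Gad1 at full depth, 55.6 against 28.1% and 51.9 against 28.1%. A larger share at full depth was seen for 86.9% of all genes. Camk2a, the calcium-dependent kinase of excitatory synapses, was found in 20 and 21 cells and averaged 102.3 and 146 CPM. Tbr1, a T-box factor, was found in 15 and 9 cells and averaged 169.3 and 159.3 CPM, and after thinning in 8 and 6 cells. Sv2b, a synaptic vesicle protein, was found in 17 and 15 cells and averaged 135.8 and 162.8 CPM. Neurod6 was found in 14 and 9 cells, and after thinning in 9 and 7. It averaged 180.4 and 345.2 CPM, with P44 highest on one side and P62 (6760 CPM) on the other.

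Slc17a6 (VGLUT2), the vesicular glutamate transporter of thalamus and of some cortical neurons, stood apart from Slc17a7. It averaged 179.6 CPM with Gad1 and 1.42 CPM without, and 4 of the 5 cells above the gap held it, P42 at 3479 CPM, P22 at 821.3, P25 at 334.8 and P67 at 18.9. P72, with 1 Gad1 count, had 181.5 CPM. The highest cell without Gad1 was P43 at 24.01 CPM. It was found in 7 and 5 cells, and in 6 and 1 after thinning, and its log2 fold was 6.22, and 4.47 without P42. P42 itself, which ranked after P67 and P22 by Gad1 count, had 0 Gad2 and 0 Slc32a1.

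A few further glutamatergic markers differed by at least 2-fold. Ptk2b, a kinase of synaptic signalling, averaged 222.3 and 51.4 CPM and was found in 18 and 16 cells. Lower with Gad1 were Neurod1, at 1.47 and 9.72 CPM, and Bhlhe22, at 22.8 and 75.1 CPM, both basic helix-loop-helix factors. Each of these last turned when 1 cell without Gad1 was left out, Neurod1 to 0.46 without P4 and Bhlhe22 to 2.74 without P24.

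Counted per cell, markers of both kinds were present in most P cells. At 10 CPM or more the median cell had 3 of 53 GABAergic and 7 of 21 glutamatergic markers with Gad1, and 2 and 6 without. GABAergic markers outnumbered glutamatergic ones in 4 of 27 cells with Gad1 (14.8%, interval 4.19 to 33.7%) and in 4 of 32 without (12.5%, 3.51 to 28.99%). On the first side these were P67 (13 against 3), P3 (13 against 7), P75 (5 against 4) and P68 (4 against 2). On the second they were P57 (6 against 2), P31 (4 against 3), P45 and P56 (each 2 against 1), the last 2 from libraries of 34239 and 29966 counts. After thinning the cells were P67, P3, P75 and P27 with Gad1 and P57 and P31 without. In F cells the same was true of 20 of 25.

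P67, the P cell with both Gad2 and Slc32a1 at 10 CPM, had none of Slc17a7, Camk2a, Neurod6, Tbr1 and Sv2b. It had a count of 9 of the 21 glutamatergic markers, among them Mef2c at 985.8 CPM, the calmodulin-binding protein gene Nrgn at 41.02 and Slc17a6 at 18.9. Mef2c and Nrgn each had a count in 15 of 25 F cells too. The summed GABA list of P67, 4911 CPM, lay within the range of F cells, whose median was 314.0 CPM. P3 had 13 GABAergic markers beside 7 glutamatergic ones. P22 and P25 each had 12 GABAergic markers but also 16 and 20 glutamatergic ones, more glutamatergic markers than any of the 25 F cells, in which the highest number was 7. At least 10 GABAergic markers were seen in these 4 cells and in 0 of the 32 cells without Gad1, which allows up to 9.375%. The 12 cells with 1 or 2 Gad1 counts had 0 to 5 GABAergic and 0 to 13 glutamatergic markers. No one of the 12 had more GABAergic than glutamatergic ones at 10 CPM, and P27 had 0 of both.

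**Figure D3:**
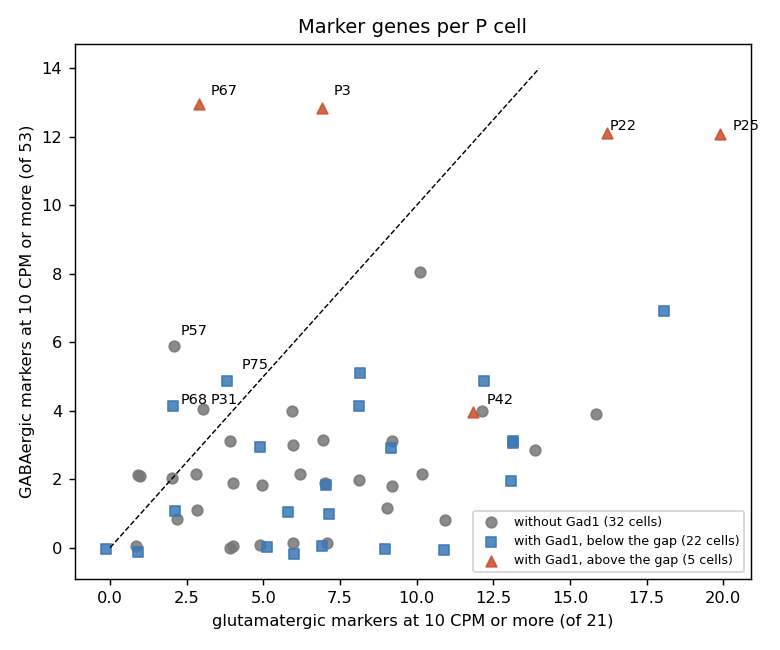
Number of GABAergic markers (vertical, of 53) against glutamatergic markers (horizontal, of 21) at 10 CPM or more in each of the 59 P cells, with small random shifts to separate points. Grey circles are cells without Gad1, blue squares cells with 1 to 21 Gad1 counts and orange triangles cells with at least 182. P67 and P3 lie above the dashed line of equal numbers, P22 and P25 lie far to its right, and the blue squares mix with the grey circles.

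Glial genes were also higher on the side with Gad1. Of the measured members, all 8 oligodendrocyte lineage markers, 13 of 16 microglia markers and 11 of 15 astrocyte markers had a higher mean with Gad1. Over all genes 57.1% did. The median log2 folds of the 3 lists were 4.40, 2.03 and 2.59, and 4.60, 1.89 and 2.31 after thinning. Those of all genes were 0.31 and 0.25. The summed oligodendrocyte list ran from 0 to 12420 CPM with Gad1 (median 62.1) and from 0 to 9550 CPM without (median 5.40). The microglia list ran from 0 to 25344 CPM (median 249.4) and from 0 to 9710 CPM (median 4.04), and the astrocyte list from 55.6 to 95104 CPM (median 3977) and from 0.75 to 107021 CPM (median 2265). The ranges overlap in each case.

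Among the genes of these lists, Cx3cr1, the fractalkine receptor of microglia, averaged 553.8 and 18.2 CPM, but was found in 16 and 15 cells and rested on P14 (12630 CPM), without which its log2 fold was 2.24 in place of 4.86. Gja1, the astrocyte gap junction protein connexin 43, averaged 82.8 and 0.15 CPM, in 7 cells with and 0 without Gad1 after thinning, with a log2 fold of 6.19, and 3.17 without P16. Cnp, a myelin enzyme, averaged 47.0 and 0.73 CPM, and Mbp, myelin basic protein, 1135 and 422.3 CPM. Apoe, which astrocytes and microglia secrete, averaged 849.2 and 120.5 CPM. Without P21 the log2 fold of Mbp was 0.73 and that of Apoe 1.41. Others went the opposite way, namely Aldoc (309.1 and 4518 CPM), Tyrobp (22.5 and 76.0, and -0.34 in log2 fold without P29) and P2ry12 (54.7 and 196.2, turning without P38). Aldoc rested on P56, a library of 29966 counts, at 99980 CPM. Its log2 fold of -3.87 was -2.22 without that cell, its medians were 25.4 CPM with and 0.197 CPM without Gad1, and the sign turned for trimmed means (5.42), mean log2(CPM + 1) (2.07) and pooled counts (0.69). Some markers, picked after their values were seen, were scarce, with Aqp4 in 4 and 3 cells, Mog in 3 and 1, and the endothelial gene Cldn5 in 3 and 0. Other glial markers were more common, with Mbp in 20 and 14 cells, Gja1 in 10 and 7, and P2ry12 in 10 and 6. Of the endothelial and mural list 2 of 6 measured members were higher (beside 57.1% of all genes), namely Pdgfrb and Itm2a. Each was held by P16, without which their log2 folds were 0.25 and 0.56.

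In the 5 cells above the gap, the 22 below it and the 32 without Gad1, the median of the summed oligodendrocyte list was 3236, 42.7 and 5.40 CPM, and that of the microglia list 322.1, 82.9 and 4.04 CPM. The astrocyte list had medians of 3708, 4408 and 2265 CPM. Within the 5 cells the sums varied widely. P67, with most Gad1, had 55.6 CPM of the astrocyte list, 3.30 of the oligodendrocyte list and 3.77 of the microglia list, while P22 had 12502, 12256 and 322.1 CPM. Without the 5 cells above the gap the median log2 folds of the astrocyte, oligodendrocyte and microglia lists were 2.78, 3.21 and 2.24. With sides set at 10 CPM of Gad1 they were -1.38, 1.19 and -2.87. The part of glial RNA in the differences between the sides was not tested.

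**Figure D4:**
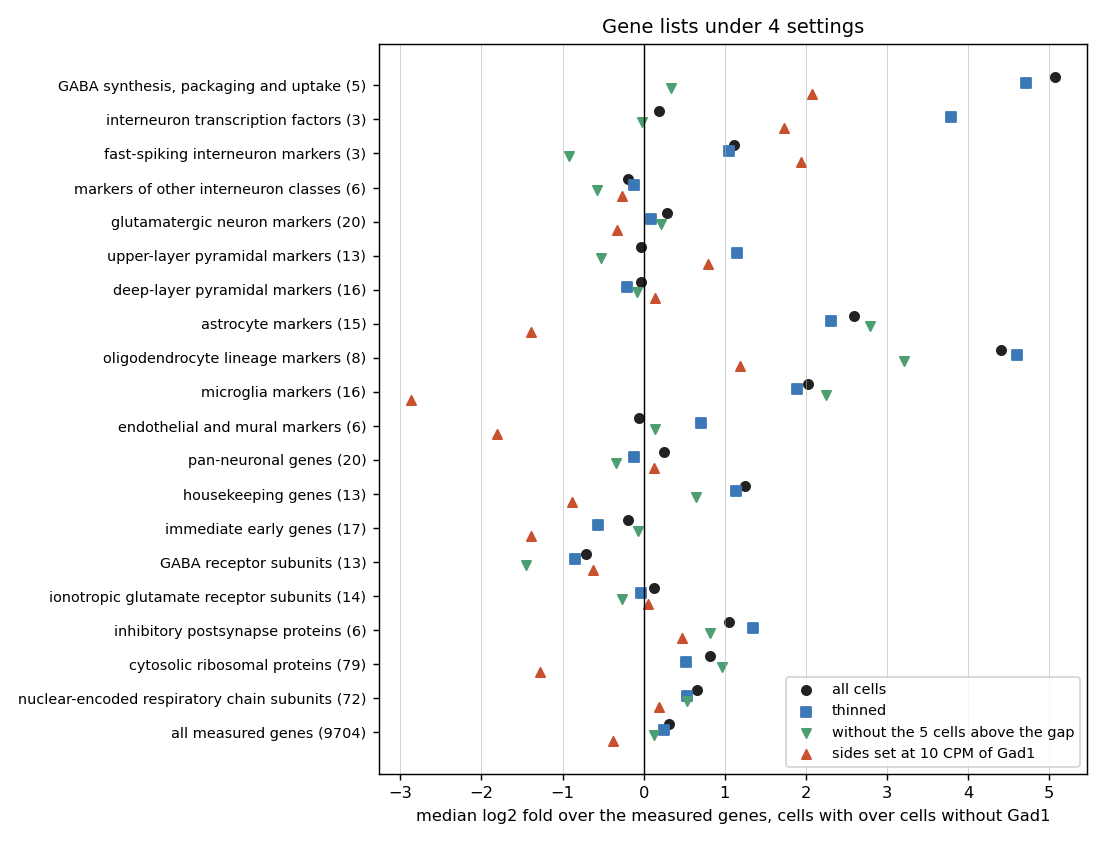
Median log2 fold of mean CPM, cells with over cells without Gad1, for each gene list and for all measured genes (number of measured genes in brackets). Black circles use all P cells, blue squares the thinned cells, green triangles leave out the 5 cells above the gap, and orange triangles compare 8 cells at 10 CPM of Gad1 or more with the other 51. The GABA synthesis list falls from 5.07 to 0.34 without the 5 cells, while the astrocyte and microglia lists keep their medians there and turn below 0 when the side is set at 10 CPM.

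Among the genes that could be ranked, those that separated the sides best, cell against cell, were not GABAergic. They were ranked by the share of the 702 pairs of a thinned cell with and a thinned cell without Gad1 in which the first was higher, with ties shared. Ranked genes had a fold of at least 2 at full depth, after thinning and without P67. They were also found in at least 30% of the thinned cells of a side, which left 553 higher and 335 lower genes. Gad2, Slc32a1, Aldh5a1 and Abat were each found in under 30% of the thinned cells of both sides, so they could not be ranked. Their shares of pairs were 54.6, 51.9, 61.1 and 44.1%. The first 10 higher genes were Rpl21, Tubb5, Fth1, Atp5e, Rab14, Rad23b, Tpt1, Unc13a, Prnp and Rab6a, with shares of 73.8 to 69.02%. Most of these are abundant in many cell types.

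Rpl21, a protein of the large ribosomal subunit, had a median of 668.9 CPM with Gad1 (0 to 6897) and 1.46 CPM without (0 to 2446), and after thinning was found in 21 of 27 and 9 of 26 cells. It has many near-identical copies in the genome, among which reads could be split. Tubb5, a beta tubulin (chr17:35833921-35838306, minus strand), had medians of 52.95 and 0 CPM and was found after thinning in 17 and 7 cells. Fth1, the ferritin heavy chain that stores iron (chr19:9980598-9985098, plus strand), was found in nearly all cells, 26 and 27, with medians of 1516 and 101.6 CPM and a log2 fold of 3.002. Its highest cell was P74 at 51890 CPM, and its copies may share reads too. Atp5e, a subunit of ATP synthase, was found after thinning in 17 and 6 cells (log2 fold 2.01, and 0.70 without P74), and Tpt1, a translationally controlled tumour protein, in 20 and 13.

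Vesicle traffic genes were among them. Unc13a, which primes synaptic vesicles for release, had medians of 10.1 and 0.36 CPM and was found after thinning in 17 of 27 and 7 of 26 cells, with a log2 fold of 2.15. Rab14 and Rab6a, small GTPases of the endosome and Golgi, had medians of 364.2 and 1.38 CPM and of 304.1 and 3.51 CPM. Prnp, the prion protein, had medians of 417.9 and 7.12 CPM, and Rad23b, a factor of DNA repair and protein degradation, 10.4 and 0 CPM. On each of these genes the ranges of the sides overlapped, and both began at 0.

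For 6 of these 10 genes, Rpl21, Tubb5, Fth1, Atp5e, Rad23b and Tpt1, the direction turned under both stricter side rules. With sides set at 10 CPM of Gad1 the log2 fold of Rpl21 was -0.44 and that of Fth1 -0.82, and with sides set after thinning they were -0.26 and -1.80. Unc13a stayed at 1.53 and 1.76 and Prnp at 0.41 and 0.32. Without the 5 cells above the gap Rpl21 was at 2.45, Fth1 at 3.24 and Unc13a at 2.34. In the 22 cells below the gap the median of Fth1 was 3254 CPM, against 1283 CPM in the 5 cells above it and 101.6 CPM in the cells without Gad1.

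The first 10 lower genes were Evi5, Rabl2, Adam10, Dock3, Sorbs2, Rnf115, Chtop, Acap2, Csf2ra and Cdh13, with shares of 30.1 to 37.4%. Evi5, a regulator of Rab GTPases (chr5:107744795-107875107, minus strand), averaged 30.4 and 249.8 CPM and was found after thinning in 6 of 27 and 15 of 26 cells. Rabl2, a Rab-like GTPase of cilia (chr15:89582533-89591923, minus strand), averaged 12.7 and 124.7 CPM and was found after thinning in 1 and 11 cells. Adam10, a membrane protease that sheds surface proteins, averaged 1.37 and 47.6 CPM. At full depth it was found in 14 and 13 cells, and after thinning in 2 and 11, so that it was present with Gad1 mostly as a trace, at no more than 14.3 CPM. The highest values of Evi5, Rabl2 and Adam10 were 397.3, 331.5 and 14.3 CPM with Gad1, and 2654, 1931 and 393.5 CPM without it.

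Chtop, an mRNA export factor, averaged 33.8 and 1015 CPM, and Acap2, a GTPase-activating protein of endosomes, 22.6 and 328.4 CPM. Rnf115, a ubiquitin ligase, averaged 3.78 and 102.5 CPM, and Cdh13, a cadherin anchored to the membrane by a lipid, 3.28 and 73.8 CPM. Csf2ra, a cytokine receptor chain, averaged 11.7 and 76.8 CPM. Dock3, an exchange factor of neurons, and Sorbs2, a scaffold of the cytoskeleton, were found in more thinned cells on both sides, 9 and 17, and 10 and 17. The log2 folds of these 10 genes stayed below 0 when any 1 cell was left out. The choice of the genes from these same cells, by low folds and low shares of pairs, favoured that outcome. Evi5, Rabl2 and Adam10 also stayed below 0 with sides set at 10 CPM, at -1.42, -0.91 and -3.42, and with sides set after thinning, at -4.79, -6.50 and -2.05.

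**Figure D5:**
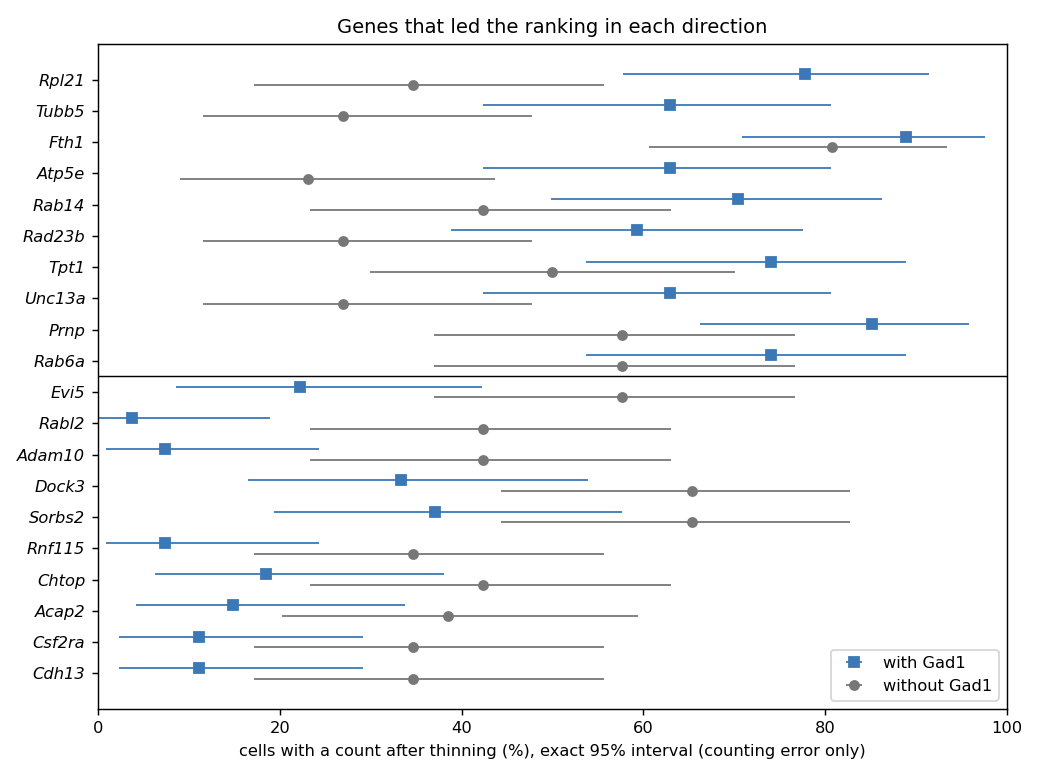
Share of cells with a count after thinning to 86539 counts, for the 10 genes that led the ranking in each direction. Blue squares are 27 cells with Gad1, grey circles 26 cells without, and bars exact 95% intervals for counting cells only. Rpl21 was found in 77.8% and 34.6% and Rabl2 in 3.70% and 42.3% of cells, while for Fth1 the 2 shares are close.

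Genes of basic metabolism and translation were higher on average with Gad1. Of cytosolic ribosomal protein genes 62 of 79 had a higher mean (78.5%, beside 57.1% of all genes), with a median log2 fold of 0.82 and of 0.52 after thinning. Rps10 was at 220.4 and 41.7 CPM, but Rpl29 (15.88 and 100) and Rpl19 (105.5 and 234.9) went the other way. Of nuclear-encoded respiratory chain genes 51 of 72 were higher, with a median of 0.65 and of 0.53 after thinning. Sdha, a subunit of complex II, was at 762.7 and 121.5 CPM, while Ndufv1 of complex I (29.1 and 157.4) and Atp5k of ATP synthase (455.4 and 5537) were lower. Atp5k rested on P56 at 114100 CPM, and the log2 folds of Rpl29 and Ndufv1 were -0.71 without P43 and -0.76 without P29. Of housekeeping genes 10 of 13 were higher, with a median of 1.25, led by Hprt (443.6 and 65.2 CPM) and Sdha. Polr2a (0.19 and 16.7 CPM) and Pgk1 (28.98 and 87.9, turning to 0.21 without P64) were lower. With sides set at 10 CPM the ribosomal median turned to -1.28 (12 of 79 higher) and that of housekeeping genes to -0.89. Over all genes 42.1% were then higher, with a median of -0.38.

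General neuronal genes did not share a direction, with 11 of 20 higher (beside 57.1% of all genes) and a median log2 fold of 0.25. After thinning these were 9 of 20 (beside 53.8%) and -0.12. Pooled counts were higher for 5 of 20, with no share of all genes given here. Mean log2(CPM + 1) was higher for 18 of 20, beside 7322 of 9704 genes over all. Map2, a dendritic microtubule protein, was at 750.9 and 281.9 CPM and Nefl, the light neurofilament, at 27.5 and 9.67. Rbfox3, the antigen NeuN, was at 107.9 and 410.4 CPM and Syp, synaptophysin, at 0.75 and 77.7. The log2 fold of Rbfox3 was -0.64 without P36, and that of Syp -3.51 without P38.

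Layer markers had no single direction across the ways of averaging. In mean CPM 6 of 13 upper-layer genes (median log2 fold -0.03) and 8 of 16 deep-layer genes (-0.04) were higher with Gad1, beside 57.1% of all genes. After thinning 8 of 13 (1.15) and 8 of 16 (-0.21) were, beside 53.8%. Trimmed means were higher for 11 of 13 (0.14) and 15 of 16 (1.44), beside 7368 of 9704 genes over all (0.135). Mean log2(CPM + 1) was higher for 11 of 13 and 12 of 16, beside 7322 of 9704. Of the upper-layer list, Inhba, an activin subunit, was at 15.6 and 0.04 CPM in 8 and 1 cells, and Wfs1, a membrane protein of the endoplasmic reticulum, at 28.1 and 3.75 CPM in 10 and 7 cells. The POU factors Pou3f2 (4.34 and 159.2 CPM) and Pou3f1 (0.42 and 8.82) were lower with Gad1, with log2 folds of -2.10 without P15 and -0.72 without P17. Of the deep-layer list, Etv1, an ETS factor of layer 5, was at 60.4 and 17.4 CPM in 15 and 6 cells, and Ldb2, a LIM-domain cofactor, at 155.1 and 12.7 CPM in 17 and 7 cells. After thinning these last were found in 9 against 1 and 9 against 4 cells. The log2 fold of Etv1 was 0.73 without P16. Ctgf (5.35 and 77.6 CPM) and Sox5 (9.26 and 21.6) were lower, Sox5 turning to 0.19 without P66.

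On the receiving side of inhibition, receptor and scaffold genes differed in direction. Of GABA receptor subunits 3 of 13 were higher with Gad1 (beside 57.1% of all genes). Their median log2 fold was -0.71, and -0.85 after thinning, beside 0.31 and 0.25 for all genes. The negative sign did not hold where single high cells weigh less. Trimmed means were higher for 11 of 13 (median 0.083), beside 7368 of 9704 genes over all (0.135). Mean log2(CPM + 1) was higher for 8 of 13 (0.51), beside 7322 of 9704 (0.365). A count was found in a larger share of cells with Gad1 for 12 of 13, beside 86.9% of all genes. Gabra4 was at 148.9 and 60.9 CPM, its log2 fold turning to -0.67 without P54. Gabrd (9.33 and 60.5 CPM) and Gabra2 (0.84 and 9.85) were lower, with log2 folds of -1.47 without P36 and -0.07 without P29. All 6 measured genes for proteins of the inhibitory postsynapse were higher (beside 57.1% of all genes), and 4 of 6 after thinning (beside 53.8%). Nlgn2, neuroligin 2, was at 11.1 and 2.83 CPM in 17 and 9 cells, with a log2 fold of 0.91 without P22. Gphn, the gephyrin scaffold, was at 110.6 and 18.8 CPM but turned to -0.58 without P37.

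Ionotropic glutamate receptor subunits were split, with 8 of 14 higher in mean CPM, 5 of 14 in pooled counts and 11 of 14 in trimmed means. Over all genes 57.1% were higher in mean CPM and 7368 of 9704 in trimmed means, and the share for pooled counts is not given here. The kainate subunits Grik5 (13.9 and 2.89 CPM, 16 and 8 cells) and Grik1 (14.8 and 5.74 CPM, 9 and 2 cells) were higher, and Grik3 (6.38 and 36.7) and the AMPA subunit Gria4 (55.7 and 345.1) lower. The log2 folds of Grik3 and Gria4 were -0.65 without P66 and -0.65 without P24. P67 held the highest Grik1 level with Gad1 (181.0 CPM), P57 that without (183.3 CPM), and its log2 fold was 0.48 without P67. Of immediate early genes, which neuronal activity induces, 6 of 17 were higher (median -0.20), and 10 of 17 for mean log2(CPM + 1). Over all genes mean log2(CPM + 1) was higher for 7322 of 9704. Btg2 was at 88.4 and 0.49 CPM, but P32 held 2289 CPM, and its log2 fold of 5.91 was 1.65 without that cell. Ier2 was at 160.6 and 12.6 CPM, resting on P71 and turning to -2.80 without it. Dusp1 (84.6 and 282.3 CPM) and Homer1 (230.6 and 1189) were lower.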

How the data were processed

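The data are raw counts of reads per gene symbol, deposited by the authors as whole numbers for 19685 genes in 84 cells. The submitters' processing notes name STAR 2.4.0, the build mm10, and bcl2fastq in versions 1.8.4 and 2.17 (called older and newer), and libraries were made with a stranded TruSeq kit, per the labels' protocols. Which tool, annotation and strand setting gave the counts is not given in the sources used here, and overlapping genes and near-identical copies cannot be separated.

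The sides, the gene lists and the rules were chosen with earlier results of these data known. Counts were divided by the cell total to give CPM and averaged over cells with equal weight. The log2 fold is of mean CPM plus a pseudocount of 1. A gene was measured with a count in at least 8 of the 59 P cells (9704 genes). For equal depth, 86539 counts (the 10th percentile of the 84 totals) were drawn from each cell without replacement. Intervals are exact Clopper-Pearson 95% intervals over cells, the limit for 0 is 3 counts of the total, and neither covers more than counting error, since reads amplified with no molecular identifier do not stand for independent molecules. Each side is 1 sample, so nothing was tested. The fold was tested on simulated data.

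Named genes were 20 set whatever their values; 10 higher and 10 lower genes, ranked on the share of thinned cell pairs, among genes found in at least 30% of a side's thinned cells with a fold of at least 2 at full depth, thinned and without P67 (predicted, Rik and mitochondrial genes not ranked); and, per list and direction, up to 2 members whose fold reached 2 both at full depth and thinned. This gave 95 genes, of which 6 are not reported here. Cells named by rule had 1 or 2 Gad1 counts or more GABAergic than glutamatergic markers. Other cells, Dlx2, Mef2c, Nrgn, Tac1, Nxph1, Calb2, Aqp4, Mog and Cldn5, and the gap in Gad1 counts were chosen after their values were seen. Alternatives included TMMwsp factors from edgeR 4.0.16 (R 4.3.3). Python 3.11.15, numpy 2.4.6, pandas 2.3.3 and scipy 1.17.1 were used.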

Additional observations from a re-analysis of the deposited data

How the results depend on the processing

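The count of GABAergic and interneuron genes with a higher mean, 12 of 17, was 33 of 52 with no low-count filter, 7 of 12 with a count required in at least 15 cells, and 7 of 17 without the 5 cells above the gap. It was 16 of 17 for pooled counts and for trimmed means and 15 of 17 for mean log2(CPM + 1). The count of glutamatergic genes, 14 of 20, was 8 of 20 with sides set at 10 CPM of Gad1, beside 42.1% of all genes. It was 19 of 20 for trimmed means, 18 of 20 for mean log2(CPM + 1) and 11 of 20 for pooled counts. Over all genes trimmed means were higher for 7368 of 9704 and mean log2(CPM + 1) for 7322. The share of all genes for pooled counts is not given here. The median log2 fold of all measured genes, 0.31, turned to -0.38 with sides at 10 CPM and to -0.69 with sides set after thinning. It was 0.207 for pooled counts, 0.135 for trimmed means, 0.365 for mean log2(CPM + 1), 0.129 with a pseudocount of 10 and 0.033 with no filter. It was 0.252 thinned to 86539 counts and 0.236 thinned to 500000. It was 0.251 without libraries under 100000 counts, 0.202 with at least 5 Gad1 counts and 0.414 in the older bcl2fastq version alone. Added after the data were seen, leaving out the 5 cells above the gap gave 0.124 and leaving out the 7 shallow cells 0.252.

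Of 1958 log2 folds of single named genes under alternatives, 113 changed sign from a difference of at least 2-fold, most under 3 settings. With sides at 10 CPM of Gad1 the changes were Slc32a1 to -0.19, Rpl21 to -0.44, Tubb5 to -1.33, Fth1 to -0.82, Atp5e to -0.84, Rad23b to -0.65, Tpt1 to -0.20, Lamp5 to 0.16, Ptk2b to -0.62, Bhlhe22 to 0.60, Inhba to -0.86, Etv1 to -0.14, Sox5 to 0.51, Apoe to -3.07, Gja1 to -3.65, Cx3cr1 to -5.69, Pdgfrb to -1.44, Itm2a to -2.19, Btg2 to -2.86, Ier2 to -6.47, Dusp1 to 0.0303, Gabra4 to -1.56, Grik5 to -0.60, Gphn to -1.67 and Rps10 to -0.27. With sides set after thinning they were Slc32a1 to -0.0919, Rpl21 to -0.26, Tubb5 to -0.76, Fth1 to -1.80, Atp5e to -0.25, Rad23b to -0.18, Tpt1 to -0.13, Lamp5 to 0.31, Ptk2b to -1.03, Bhlhe22 to 0.73, Inhba to -0.77, Etv1 to -0.0296, Sox5 to 0.49, Apoe to -2.39, Gja1 to -4.05, Cx3cr1 to -4.95, Pdgfrb to -2.50, Itm2a to -4.75, Btg2 to -5.61, Ier2 to -6.67, Gabra4 to -0.54, Grik5 to -0.89, Gphn to -1.31 and Rps10 to -0.15. In the older bcl2fastq version alone, 4 against 2 cells, they were Lamp5 to 3.16, Bhlhe22 to 2.56, Pou3f2 to 1.57, Pou3f1 to 1.18, Ldb2 to -1.34, Ctgf to 0.34, Mbp to -4.29, Tyrobp to 0.40, Pdgfrb to -0.18, Itm2a to -2.36, Rbfox3 to 6.55, Hprt to -0.57, Pgk1 to 5.40, Ier2 to -7.43, Homer1 to 1.56, Gabra4 to -5.54, Gabrd to 0.40, Gabra2 to 1.92, Nlgn2 to -0.13, Gphn to -2.93, Rpl29 to 3.20, Rpl19 to 0.13, Ndufv1 to 1.21 and Atp5k to 0.22. Trimmed means turned Lamp5 to 2.23, Neurod1 to 0.0179, Bhlhe22 to 0.20, Pou3f1 to 0.0976, Sox5 to 0.13, Ctgf to 0.063, Aldoc to 5.42, Tyrobp to 0.61, P2ry12 to 0.23, Pgk1 to 0.86, Homer1 to 0.41, Gabrd to 0.0505 and Gabra2 to 0.0077. Mean log2(CPM + 1) turned Lamp5 to 0.87, Bhlhe22 to 0.30, Aldoc to 2.07, P2ry12 to 0.32, Pgk1 to 0.14 and Rpl19 to 0.48, and pooled counts Lamp5 to 1.63, Aldoc to 0.69 and P2ry12 to 0.41. Below the gap the folds turned for Gad2 to -1.59, Pvalb to -0.0288, Kcnc1 to -1.04 and Reln to -0.80. TMMwsp factors turned Nefl to -0.62 and Grik1 to -0.0625, thinning to 500000 counts Lamp5 to 2.04 and Aldoc to 0.87, and at least 5 Gad1 counts Gabra4 to -1.12. With each cell left out in turn, the genes that crossed 0 ranged for Lamp5 from -2.43 to 2.38, Neurod1 from -3.11 to 0.46, Bhlhe22 from -3.33 to 2.74, Sox5 from -2.52 to 0.19, P2ry12 from -2.69 to 1.16, Pgk1 from -2.72 to 0.21, Ier2 from -2.80 to 5.75, Gabra4 from -0.67 to 2.83 and Gphn from -0.58 to 4.18. No named gene that differed by at least 2-fold changed sign with totals without Rn45s or within the newer bcl2fastq version. None did without P67, thinned to 86539 counts or with a pseudocount of 10 either, but this was largely fixed in advance. The ranked genes were named for a fold of at least 2 in the same direction thinned and without P67. List members were named for such a fold thinned, and a pseudocount cannot change a sign. The cause of the changes of sign listed above was not tested. No paired analysis was possible because the sides are cells with no replicate numbers and nothing was tested. Shallow libraries limit detection, and a trace of 1 or 2 Gad1 counts decided the side of 12 cells.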
